A study of Mus musculus with 6 samples.

Results

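The V2R family C genes Vmn2r1 to Vmn2r7 code for the co-receptors of the basal sensory neurons of the vomeronasal organ (VNO), the chemosensory organ in the nasal septum that detects pheromones and other social cues. They were taken as the genes whose symbol in the array's annotation is exactly one of these 7 names, and all 7 were measured, out of 22180 genes in all. Each had 1 probe set of its own, and 1 further probe set, listed for 3 genes at once, was not used. RNA was compared between 3 AP-2e null and 3 wild-type VNO samples of mice at postnatal day 17, on 1 array per sample. Tfap2e codes for AP-2e, a transcription factor. The sources used here do not give the null allele, the strain, the sex or the number of animals per sample. The titles call the samples biological replicates, so p-values measure the spread between these samples.

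A basal neuron makes a V2R receptor of family A, B or D, which differs from neuron to neuron, together with a receptor of the small family C, which is shared by many neurons. Vmn2r1 alone forms subfamily C1 and Vmn2r2 to Vmn2r7 form subfamily C2, and basal neurons fall largely into those with C1 and those with C2. V2R receptors signal through the G protein subunit Gnao1, and part of the basal neurons also make H2-Mv proteins, which are nonclassical MHC molecules. Apical neurons of the same organ use V1R receptors and the subunit Gnai2 instead.

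Some family C genes are close copies of each other at their annotated starts, which may bear on how far the array can tell them apart. RefSeq promoter windows (assembly GRCm38.p6, 250 bases before to 50 after the annotated gene start) were at hand for 6 of the 7 genes, all but Vmn2r5. Whether transcription begins at these annotated starts was not tested, and the run shared by 4 genes may belong to an exon inside them. The windows are shown because they set out which members are nearly the same in sequence, read 5′ to 3′ along the gene, and capitals mark the run of 68 bases that ends all of the windows of Vmn2r2, Vmn2r4, Vmn2r6 and Vmn2r7. On the minus strand lie the windows of Vmn2r6 (chr3:64559769-64560068), Vmn2r7 (chr3:64719553-64719852), Vmn2r4 (chr3:64410008-64410307) and Vmn2r2 (chr3:64137431-64137730). The window of Vmn2r1 lies at chr3:64081392-64081691 on the plus strand.
Vmn2r6: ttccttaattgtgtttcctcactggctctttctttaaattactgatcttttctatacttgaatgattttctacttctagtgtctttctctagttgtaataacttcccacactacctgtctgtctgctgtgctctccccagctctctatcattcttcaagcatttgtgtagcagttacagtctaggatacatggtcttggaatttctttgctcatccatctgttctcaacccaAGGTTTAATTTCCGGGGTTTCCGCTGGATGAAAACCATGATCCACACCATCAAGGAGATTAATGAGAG
Vmn2r7: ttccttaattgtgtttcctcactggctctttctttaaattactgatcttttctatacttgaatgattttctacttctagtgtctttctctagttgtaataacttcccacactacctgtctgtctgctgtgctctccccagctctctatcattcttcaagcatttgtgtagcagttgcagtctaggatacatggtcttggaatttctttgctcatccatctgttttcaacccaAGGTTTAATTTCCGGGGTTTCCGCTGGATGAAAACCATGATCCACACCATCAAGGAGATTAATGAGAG
Vmn2r4: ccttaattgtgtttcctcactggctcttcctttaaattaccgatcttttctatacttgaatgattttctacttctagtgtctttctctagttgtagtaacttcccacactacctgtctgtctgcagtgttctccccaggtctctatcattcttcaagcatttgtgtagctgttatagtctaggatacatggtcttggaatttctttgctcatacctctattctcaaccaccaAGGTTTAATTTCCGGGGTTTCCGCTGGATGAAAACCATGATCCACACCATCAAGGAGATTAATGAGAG
Vmn2r2: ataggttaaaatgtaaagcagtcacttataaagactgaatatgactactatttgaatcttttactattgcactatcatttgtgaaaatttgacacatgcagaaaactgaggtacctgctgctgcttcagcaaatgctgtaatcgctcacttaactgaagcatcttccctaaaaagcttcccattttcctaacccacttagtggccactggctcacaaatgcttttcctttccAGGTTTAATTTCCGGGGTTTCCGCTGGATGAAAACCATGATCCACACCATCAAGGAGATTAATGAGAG
Vmn2r1: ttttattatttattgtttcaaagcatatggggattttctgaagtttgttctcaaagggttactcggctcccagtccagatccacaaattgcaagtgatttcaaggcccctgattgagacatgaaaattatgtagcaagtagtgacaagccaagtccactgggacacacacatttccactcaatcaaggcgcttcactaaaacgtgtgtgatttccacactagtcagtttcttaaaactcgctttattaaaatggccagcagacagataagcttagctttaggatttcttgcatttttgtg
In a global alignment the windows of Vmn2r6 and Vmn2r7 were 99.3% identical, with 298 of 300 positions the same. Vmn2r4 was 95% identical to Vmn2r6 and 94.4% to Vmn2r7. Vmn2r2 shared the capital run but was only 63.4% identical to Vmn2r7 over the whole window. Vmn2r1, the C1 gene, was 47.8% identical to Vmn2r7 and has no capital run. The window of Vmn2r3, not printed, was between 46.8% and 50.9% identical to the others, so it is no close copy there. The spans of Vmn2r1 and Vmn2r2 overlap in the RefSeq table on opposite strands. Probes of close copies can bind the RNA of more than 1 member, so values of single members are uncertain. Of each window's 300 bases, 250 lie before the annotated start, so the windows do not show which members share probe targets. How many probes are specific to 1 member was not tested.

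AP-2 proteins bind palindromes of the half-sites GCC and GGC. The spaced palindrome GCCNNNGGC, which reads the same on both strands, was in 1 of the 6 windows, that of Vmn2r2, against 7.27% of the windows of 110 other V2R genes and 16.5% of the windows of 27025 genes (the first window listed for each). GCCNNNNGGC, the form with a wider spacer, was in 0 of the 6, against 2.73% of the other V2R windows and 14.8% of all windows. A match is a run of letters and not a measured binding site, and these windows cover only the stretch next to the annotated start, which may not be the promoter in use.

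Tfap2e, the gene altered in the null mice, had log2 signals of 5.97, 6.09 and 6.04 in AP-2e null VNOs, against 6.46, 6.76 and 6.92 in wild-type VNOs. Every null array lay under every wild-type array. The difference was -0.68 (SE 0.13) and did not pass over all genes (adjusted p = 0.431 in limma). The sources used here do not place its probe set on the gene, so its signal is a weak check of the allele. On all 6 arrays the median signal lay between 4.997 and 5.079, and the arrays correlated with r between 0.978 and 0.992 across genes, which are not independent replicates. Values below are RMA log2 signals, on which 1 unit is a doubling, and each difference is the AP-2e null mean less the wild-type mean. The number of arrays limits the precision.

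All 7 family C genes had lower signal in AP-2e null VNOs, and for every one the highest null array lay under the lowest wild-type array. Over all genes tested, 3.64% had all null arrays below all wild-type arrays. Vmn2r4, Vmn2r5, Vmn2r6 and Vmn2r7 fell past the threshold (adjusted p under 0.05 over 22180 genes in limma), against 0.216% of all genes that fell. Vmn2r1, Vmn2r2 and Vmn2r3 did not pass over all genes, and each was lower at an unadjusted p under 0.05, as 2.49% of all genes were. The median difference of the 7 genes was -1.75, against 0.00 over all genes and -1.88 over the 102 other V2R genes. In whole organs, fewer basal neurons and less receptor RNA per neuron cannot be told apart.

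**Figure D1:**
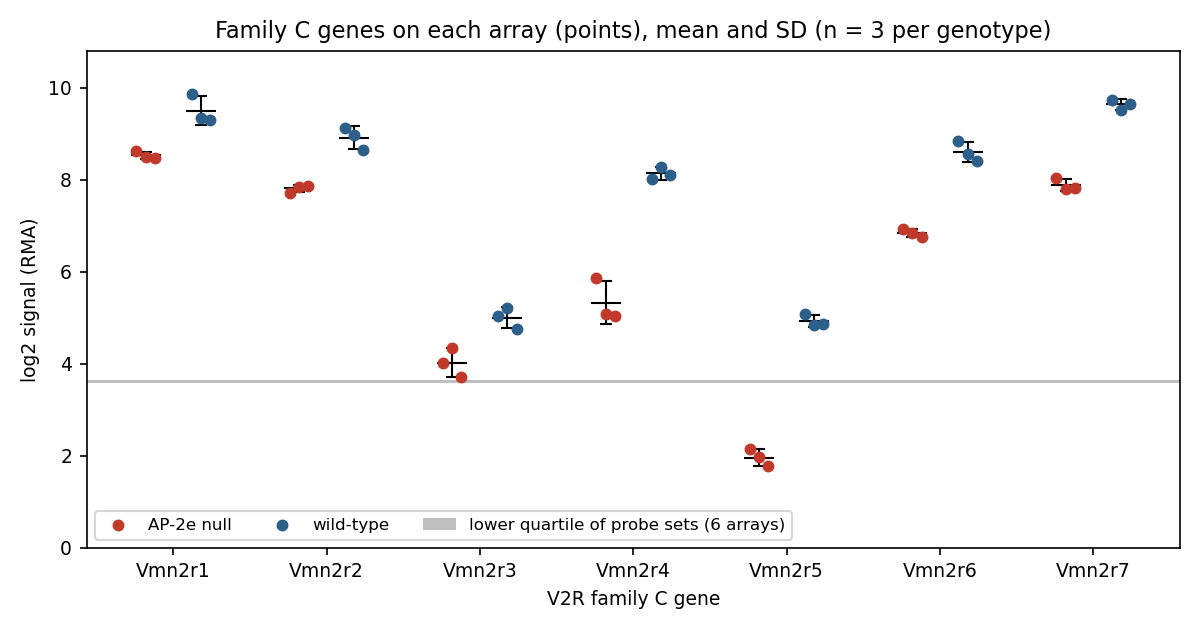
Log2 signal (vertical axis) of the 7 family C genes in AP-2e null (red) and wild-type (blue) VNOs, with points for arrays and bars for mean and SD (n = 3 per genotype). The genotypes do not overlap for any gene, and Vmn2r5 in AP-2e null VNOs is the only group under the grey band, which spans the lower quartiles of the 6 arrays.

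Vmn2r1 is the only C1 gene, the co-receptor of the basal neurons without C2. Its log2 signals were 8.62, 8.49 and 8.47 in AP-2e null VNOs, against 9.87, 9.34 and 9.29 in wild-type VNOs. The null arrays lay within 0.15 of each other, and wild-type replicate 1 stood above its group by more than the others lay apart. The means were 8.52 ± 0.08 in AP-2e null and 9.50 ± 0.32 in wild-type VNOs (SD, n = 3 each), a difference of -0.98 (SE 0.17, adjusted p = 0.342 in limma) or 1.97-fold lower. Vmn2r1 passed in 0 of 17 alternatives, while its difference stayed between -1.10 and -0.79.

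Among the C2 genes, Vmn2r2 and Vmn2r3 had differences close to that of Vmn2r1. Vmn2r2 had log2 signals of 7.72, 7.85 and 7.86 in AP-2e null VNOs, against 9.12, 8.98 and 8.64 in wild-type VNOs. The null arrays were tightly grouped and wild-type replicate 3 was the lowest of its genotype. The difference was -1.11 (SE 0.13, adjusted p = 0.0869 in limma) or 2.16-fold lower. Vmn2r2 was thus the member nearest to the threshold from outside, and it passed without wild-type replicate 3 at -1.25 (adjusted p = 0.0384). It also passed with median centring at -1.14 (adjusted p = 0.0288) and with array weights at -1.18 (adjusted p = 0.0301). Vmn2r3 was a dim member, with 4.02, 4.35 and 3.71 in AP-2e null VNOs, against 5.03, 5.21 and 4.76 in wild-type VNOs. Its groups came closest of the 7, with 0.41 between the highest null and the lowest wild-type array. The difference of Vmn2r3 was -0.97 (SE 0.20, adjusted p = 0.591 in limma) or 1.96-fold lower, and it passed in 0 of 16 alternatives. Its null values lay near the lower quartile of the probe sets, 3.62. Since low array signals include background, the fold of Vmn2r3 may be understated.

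Vmn2r4 and Vmn2r5, neighbouring C2 genes, had the largest differences of the family. Vmn2r4 had log2 signals of 5.87, 5.07 and 5.04 in AP-2e null VNOs, against 8.02, 8.28 and 8.10 in wild-type VNOs. AP-2e null replicate 1 stood apart from the other null arrays, but still lay 2.14 under the lowest wild-type array. Vmn2r4 fell 6.98-fold, a difference of -2.80 (SE 0.24, adjusted p = 0.0221 in limma). Without AP-2e null replicate 1 it passed at -3.08 (adjusted p = 0.00769). With any other single array left out it did not pass, with differences between -2.86 and -2.66 and adjusted p of 0.161 to 0.205.

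Vmn2r5 had log2 signals of 2.14, 1.97 and 1.77 in AP-2e null VNOs, against 5.08, 4.85 and 4.86 in wild-type VNOs. This was the widest gap of the family, 2.71 between the highest null and the lowest wild-type array. Vmn2r5 fell 7.84-fold, a difference of -2.97 (SE 0.12, adjusted p = 0.00111 in limma), to 12.7% of the wild-type signal. It was the only member to pass in all 6 fits that each left out 1 array, at differences from -3.06 to -2.88 (adjusted p 0.0101 to 0.0283). All of its null values lay under the lower quartile of the probe sets, 3.62, and since low array signals include background, the fold may be understated.

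Vmn2r6 and Vmn2r7, the pair with the nearly identical windows, fell by nearly the same amount. Vmn2r6 had log2 signals of 6.92, 6.84 and 6.76 in AP-2e null VNOs, against 8.84, 8.55 and 8.41 in wild-type VNOs. Vmn2r7 had 8.04, 7.79 and 7.82 in AP-2e null VNOs, against 9.74, 9.51 and 9.65 in wild-type VNOs. For both genes the groups lay well apart, by 1.49 for Vmn2r6 and 1.47 for Vmn2r7, and replicate 1 was the highest array in either genotype. Vmn2r6 fell 3.39-fold (-1.76, SE 0.12, adjusted p = 0.00996 in limma). Vmn2r7 fell 3.37-fold (-1.75, SE 0.10, adjusted p = 0.00465). Vmn2r6 lost its call without any of the AP-2e null arrays or without wild-type replicate 2, with differences between -1.80 and -1.72 and adjusted p up to 0.137. Vmn2r7 lost it without AP-2e null replicate 2 (-1.70, adjusted p = 0.0551) or replicate 3 (-1.72, adjusted p = 0.0561).

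**Figure D2:**
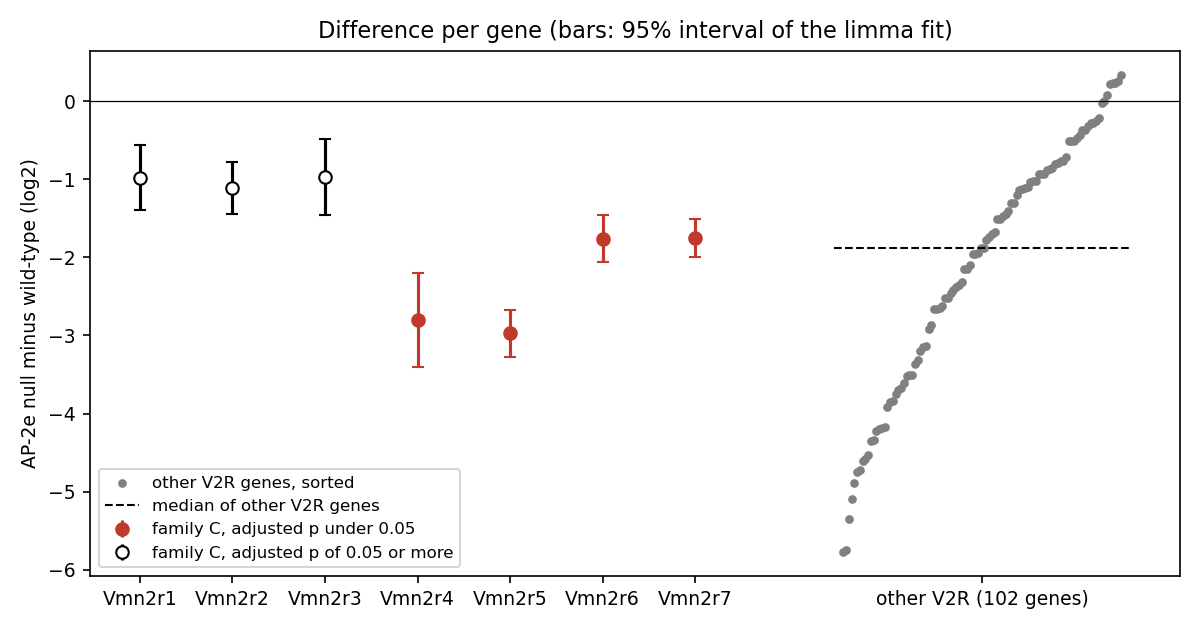
Difference between AP-2e null and wild-type VNOs on the log2 scale (vertical axis) for the 7 family C genes, with 95% intervals of the limma fit, and for 102 other V2R genes sorted by size. The 4 filled points passed the threshold, and the family C genes lie between -2.97 and -0.97, within the spread of the other V2R genes.

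The measured differences of the members were of unequal size. For each of the 21 pairs of members, the log2 value of the first gene minus that of the second was taken on each array. This value was compared between genotypes, which measures unequal change and is not affected by a constant added to a whole array. In 16 of the 21 pairs the genotypes did not overlap, and 5 pairs overlapped. The pairs reuse the same genes and arrays, so they are not independent. The share without overlap over pairs of all genes was not computed. In each of the 16 the exact 2-sided permutation test gave p = 0.1, its lower limit with 3 arrays per genotype, and an adjusted p of 0.131 over the 21 pairs, so this design cannot bring a pair past 0.05. The 5 overlapping pairs were Vmn2r1 with Vmn2r2, Vmn2r1 with Vmn2r3, Vmn2r2 with Vmn2r3, Vmn2r4 with Vmn2r5 and Vmn2r6 with Vmn2r7.

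The overlapping pairs joined the members into 3 groups, which were seen in the values and not set beforehand. With so few arrays, overlap does not show that 2 members changed equally. Differences were -0.98, -1.11 and -0.97 for Vmn2r1, Vmn2r2 and Vmn2r3, then -1.76 and -1.75 for Vmn2r6 and Vmn2r7, and -2.80 and -2.97 for Vmn2r4 and Vmn2r5. Vmn2r1 minus Vmn2r4 was 2.75, 3.42 and 3.42 in AP-2e null VNOs, against 1.85, 1.06 and 1.19 in wild-type VNOs. Vmn2r4 thus changed by 1.83 more than Vmn2r1 (95% interval 0.91 to 2.75, from the linear fit with 4 residual degrees of freedom). Vmn2r5 minus Vmn2r7 was -5.90, -5.82 and -6.05 in AP-2e null VNOs, against -4.67, -4.66 and -4.79 in wild-type VNOs. Vmn2r5 lay under the lower quartile of the probe sets on all null arrays. Its distance to the other members may thus be understated, and its place beside Vmn2r4 is uncertain. The change of Vmn2r3, dim on the null arrays, may likewise be understated, so its place beside Vmn2r1 and Vmn2r2 is uncertain. Vmn2r4 minus Vmn2r7 was -2.17, -2.72 and -2.78 in AP-2e null VNOs, against -1.73, -1.24 and -1.55 in wild-type VNOs. The genotypes did not overlap (difference -1.05, 95% interval -1.72 to -0.38), although the windows of these genes are 94.4% identical.

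As seen in these values, the groups cut across the subfamilies. Vmn2r1, the C1 gene, and Vmn2r2, a C2 gene, differed in their change by 0.13 (95% interval -0.28 to 0.55, exact permutation p = 0.6), an interval with room for a difference of either sign. Vmn2r1 and Vmn2r6 differed by 0.78 (95% interval 0.58 to 0.99), with Vmn2r6 the more lowered. Vmn2r6 minus Vmn2r7 was -1.12, -0.96 and -1.06 in AP-2e null VNOs, against -0.91, -0.96 and -1.24 in wild-type VNOs. The change of these near copies differed by -0.01 (95% interval -0.32 to 0.30). The part of shared probes in this was not tested.

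**Figure D3:**
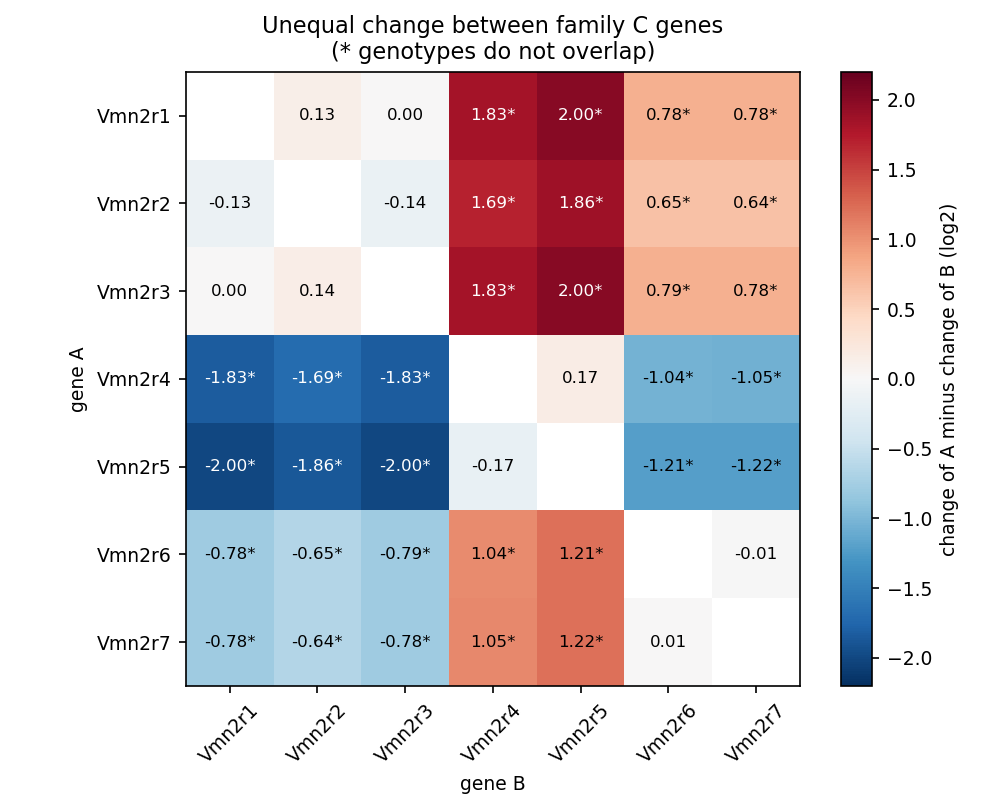
Change of gene A (rows) minus change of gene B (columns) between AP-2e null and wild-type VNOs, in log2 units, for all pairs of family C genes. Asterisks mark the 16 pairs whose genotypes do not overlap, and the unmarked pairs lie within the groups of Vmn2r1 to Vmn2r3, Vmn2r4 with Vmn2r5, and Vmn2r6 with Vmn2r7.

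Compared with the receptors they pair with, the family C genes lay within the spread of the V2R genes. The other 102 V2R genes had differences between -5.77 and 0.34 with quartiles at -3.47 and -0.86, and 38 of them fell past the threshold, while 57.1% of family C and 37.3% of the other V2R genes passed with all arrays. Without AP-2e null replicate 2 only 1 of 7 family C and 18 of 102 other genes passed, and without AP-2e null replicate 3 only 1 and 21, so the order of these shares turns with single arrays. Over all 6 fits with 1 array left out, between 1 and 4 family C and between 14 and 22 other genes passed. Vmn2r5, the most lowered member, had 31 of the 102 other V2R genes below it in difference, and Vmn2r3, the least lowered, had 71. Both places may be understated given the dim null values of these genes. Of the 48 genes that fell, 4 were of family C and 38 were other V2R genes. The 74 other V2R genes with a wild-type mean in the family C range had a median difference of -2.25 (quartiles -3.66 and -1.04). Family C had -1.75. Whether family C as a whole differs from the other V2R genes was not tested.

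The order of the arrays within a genotype was not the same for family C and for the other V2R genes. The mean of the 7 family C genes was 6.19, 6.05 and 5.92 on AP-2e null replicates 1, 2 and 3, against 7.96, 7.82 and 7.67 on wild-type replicates 1, 2 and 3. Wild-type replicate 1 was the highest of its genotype for 5 of the 7 members, and wild-type replicate 3 was highest for 0 and lowest for 4. The mean of the other V2R genes was 4.47, 4.32 and 4.32 in AP-2e null VNOs, against 6.44, 6.29 and 6.72 in wild-type VNOs, so that replicate 3 was their highest wild-type array. Gnao1, Calr4 and Omp, the general marker of mature sensory neurons, were also highest on wild-type replicate 3. Among wild-type arrays, that replicate was the highest for 4 of 6 basal markers, with Gng8 and Bcl11b lowest there. For a list of 9 neuron genes, named below, that replicate was the highest for 5 and the lowest for 2. Family C mean minus other V2R mean was 1.73, 1.73 and 1.60 in AP-2e null VNOs, against 1.51, 1.53 and 0.95 in wild-type VNOs. The gap was smaller on every wild-type array, and smallest on wild-type replicate 3.

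**Figure D4:**
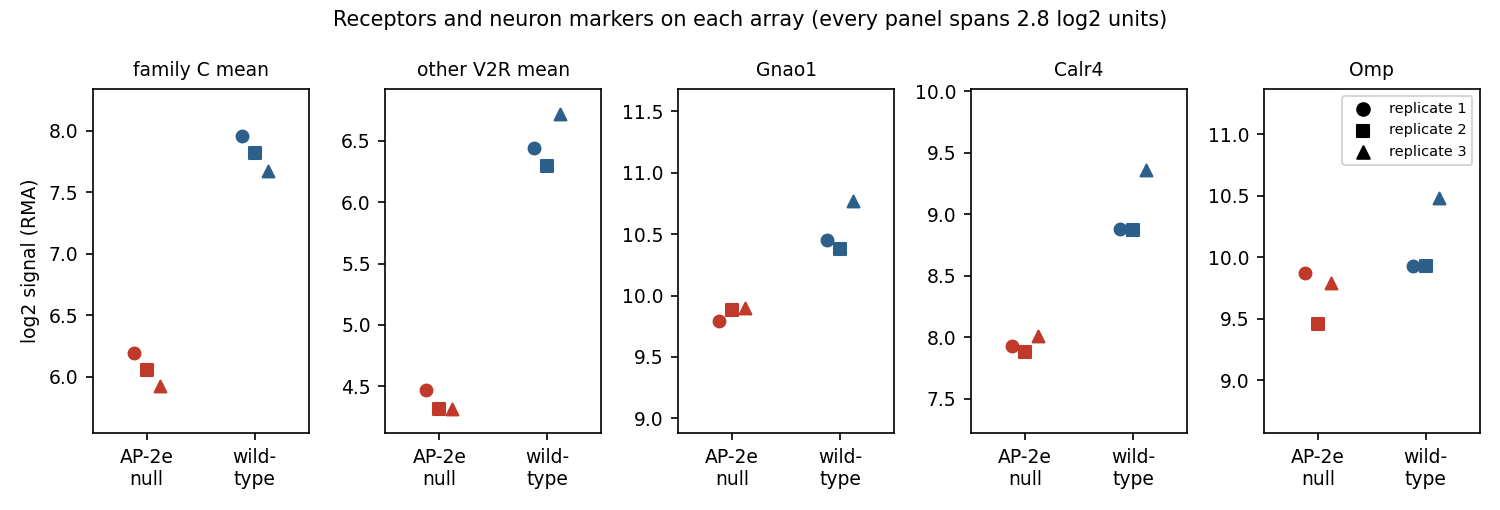
Log2 signal (vertical axes) on each array of the mean of family C, the mean of the other V2R genes, and the genes Gnao1, Calr4 and Omp, in AP-2e null (red) and wild-type (blue) VNOs, with the marker shape giving the replicate number. Wild-type replicate 3 is the lowest wild-type array for family C and the highest in the other panels.

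In a fixed list of receptor signalling, chaperone and surface transport genes, none passed over all genes. Whether each of them serves V2R receptors was not tested. Of 17 such genes, 0 fell and 0 rose in limma, against 0.225% of all genes that passed in either direction. At an unadjusted p under 0.05, 3 were lower and 1 was higher, against 2.49% lower and 4.4% in either direction over all genes. The median difference of the 17 genes was 0.01. Gnao1, the G protein subunit of basal neurons, had log2 signals of 9.79, 9.88 and 9.90 in AP-2e null VNOs, against 10.45, 10.38 and 10.77 in wild-type VNOs. The groups did not overlap, and the difference was -0.68 (SE 0.11, adjusted p = 0.331). Calr4, a calreticulin-like chaperone of basal neurons, had 7.93, 7.88 and 8.01 in AP-2e null VNOs, against 8.88, 8.87 and 9.36 in wild-type VNOs (difference -1.10, SE 0.15, adjusted p = 0.141). It was thus about as much lower as Vmn2r1 and Vmn2r2, and like Vmn2r2 it passed without wild-type replicate 3 (-0.93, adjusted p = 0.0384). Ano2, a calcium-activated chloride channel, was at -0.40 (adjusted p = 0.705), and Rtp1, a receptor-transporting protein, was at 0.44 (adjusted p = 0.370).

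The other genes of this list had differences between -0.24 and 0.15. The transduction channel Trpc2 was at -0.04, the chloride channel Ano1 at 0.06 and the G protein subunit Gnb1 at -0.10. The phospholipases Plcb2 and Plcb4 were at 0.00 and 0.15, the inositol trisphosphate receptor Itpr3 at 0.09 and Gng8, a G protein subunit counted also among the basal markers below, at 0.06. The potassium channels Kcnn3 and Kcnj6 were at -0.24 and 0.10. The chaperones Canx and Calr were at -0.01 and 0.08, the MHC light chain B2m at 0.01 and the receptor-transporting Reep1 at 0.05. None of these had an unadjusted p under 0.05.

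Of 6 markers of basal neurons that are no receptors, 4 were lower without overlap of the genotypes, against 3.64% of all genes, and 0 passed over all genes. The same 4 were lower at an unadjusted p under 0.05, against 2.49% of all genes. They were Gnao1, Calr4, the adhesion gene Kirrel3 at -0.50 and the guidance receptor Robo2 at -0.49, while Gng8 and the transcription factor Bcl11b, at 0.03, overlapped. The mean level of the 6 markers ran from 8.68 to 8.80 over AP-2e null arrays, against 9.13 to 9.29 over wild-type arrays. Their median difference was -0.50, against -1.75 for family C, and their part in the result for family C was not tested. The 8 apical markers had a median difference of 0.03, with 0 past the threshold. In limma 3 of them had an unadjusted p under 0.05, against 4.4% of all genes. Of the 3, Meis2 at 0.26 and Gng2 at 0.36 were higher, and Kirrel2 at -0.35 was lower. A list of 9 neuron genes held Omp, Stoml3, Cnga4, Ncam1, Gap43, Stmn2, Tubb3, Uchl1 and Snap25. Its median difference was -0.10, with 0 past the threshold and 0 at an unadjusted p under 0.05. Omp was at 9.87, 9.46 and 9.79 in AP-2e null VNOs, against 9.93, 9.93 and 10.48 in wild-type VNOs (-0.41, adjusted p = 0.873).

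H2-Mv genes, which part of the basal neurons make, were lower in 9 of 9 cases, with a median difference of -0.81. In limma, H2-M1 fell by 2.82 in log2 units (adjusted p = 0.0271), about as much as Vmn2r4, and did not pass with any single array left out (-3.05 to -2.57, adjusted p 0.0625 to 0.259). Of the other AP-2 genes, Tfap2a was at 0.06, Tfap2b at -0.03, Tfap2c at 0.15 and Tfap2d at 0.02, and none had an unadjusted p under 0.05.

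Other cell types, not all of them of the VNO, were represented by 10 marker lists with 56 measured genes. Main olfactory neurons were among these types. Of the 56 genes, 0 passed in limma and 3 had an unadjusted p under 0.05, near the 4.4% of all genes that had one. The 3 were Ano2 at -0.40, Krt8 at -0.34 and Ptprc at 0.28. Ano2 was counted here as a main olfactory marker and is also among the signalling genes above. The median difference of the 56 genes was 0.11. Cartilage genes stood at a mean of 8.01 on AP-2e null replicate 2 and at 5.43 and 5.59 on the other null arrays, against 5.57 to 5.82 on wild-type arrays. On that array the family C mean, 6.05, lay between those of the other null arrays. Markers of ciliated cells had a mean of 8.04 to 8.27 over AP-2e null arrays, against 8.09 to 8.75 over wild-type arrays, which overlap. Markers of main olfactory neurons were lowest on replicate 1 of either genotype, the array where the family C mean was highest. Their mean was 6.15, 6.86 and 6.80 on AP-2e null replicates 1, 2 and 3, against 5.73, 7.17 and 6.33 on wild-type replicates 1, 2 and 3. Supporting cell markers were likewise lowest there, at 6.51, 7.41 and 7.24 in AP-2e null VNOs, against 6.87, 7.59 and 6.94 in wild-type VNOs. For both lists the genotypes overlapped, and their part in the spread of family C within a genotype was not tested.

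The genes whose pattern over the 6 arrays was most like the mean of family C were mostly other V2R genes. Likeness was measured as the root mean square difference between a gene's log2 values and the family C mean, each centred on its own mean over the 6 arrays. The values were not scaled, so this measure depends largely on the difference between genotypes. Genes that differed about as much as family C therefore rank high, and the ranking largely restates the genotype result. The median of the measure over all genes was 0.90. Among the members, Vmn2r6 (0.06) and Vmn2r7 (0.09) lay closest to the mean. Vmn2r2 (0.35), Vmn2r1 (0.41), Vmn2r3 (0.44), Vmn2r4 (0.57) and Vmn2r5 (0.61) lay farther off. Several members were thus less like the mean than the nearest genes outside the family. This follows from the measure, since those members had larger or smaller differences and the outside genes were picked as the nearest. Of the 20 nearest genes outside the family, 15 were V2R genes, 1 was the V2R pseudogene Vmn2r-ps60, which was the nearest of all (0.14), and 4 lay outside the V2R genes. The V2R genes were led by Vmn2r80 (0.20), Vmn2r62 (0.26), Vmn2r126 (0.26), Vmn2r78 (0.28) and Vmn2r52 (0.28). Vmn2r80 had 5.67, 5.09 and 5.23 in AP-2e null VNOs, against 6.95, 6.91 and 7.15 in wild-type VNOs, and fell 3.19-fold (adjusted p = 0.0396 in limma). With single arrays left out it passed only without AP-2e null replicate 1 (-1.85, adjusted p = 0.0295), against adjusted p of 0.193 to 0.301 in the other fits.

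The 4 genes outside the V2R family were Sphkap (0.22), Tafa1 (0.34), Cfap300 (0.34) and the odorant receptor gene Olfr293 (0.39), and the next outside it, beyond the 20, was Calr4 (0.42). Sphkap, an anchor protein gene of the protein kinase A pathway, had 5.66, 5.80 and 5.74 in AP-2e null VNOs, against 7.18, 7.34 and 6.95 in wild-type VNOs. Its wild-type replicate 3 was the lowest of the genotype, as for the family C mean. Sphkap fell 2.68-fold (adjusted p = 0.0155 in limma), and with single arrays left out it passed only without wild-type replicate 3 (-1.53, adjusted p = 0.0261), with adjusted p of 0.0794 to 0.164 otherwise. Olfr293 did not pass (adjusted p = 0.644), and its null values, 2.09, 2.52 and 1.71, lay under the lower quartile of the probe sets.

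The 7 family C genes stand together on chromosome 3, and the measured genes on either side had small differences. In the RefSeq gene table the cluster also holds V2R pseudogenes, and 0 of its other genes had a probe set of their own. Of the 5 nearest protein-coding genes on each side, 9 were measured, and 0 passed in limma, with 0 also at an unadjusted p under 0.05. Their differences lay between -0.06 and 0.11. Gmps, an enzyme of guanine nucleotide synthesis and the nearest gene on the Vmn2r1 side, had 8.78, 8.75 and 8.75 in AP-2e null VNOs, against 8.91, 8.69 and 8.72 in wild-type VNOs. Kcnab1, a potassium channel subunit and the nearest gene on the Vmn2r7 side, had 5.53, 5.38 and 5.16 in AP-2e null VNOs, against 5.01, 5.04 and 5.69 in wild-type VNOs. For both genes the genotypes overlapped. Along the cluster the differences were least at the Vmn2r1 end, largest at Vmn2r4 and Vmn2r5, and intermediate at Vmn2r6 and Vmn2r7. The places of the dim Vmn2r3 and Vmn2r5 in this order are uncertain.

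**Figure D5:**
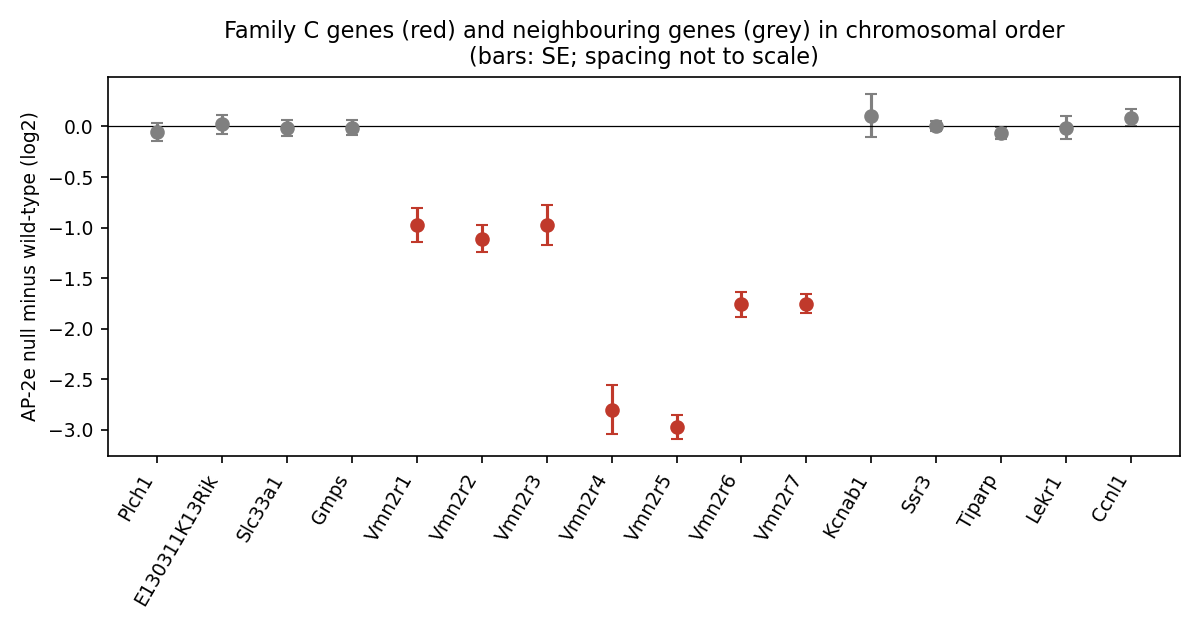
Difference between AP-2e null and wild-type VNOs on the log2 scale (vertical axis, bars for SE) for the 7 family C genes (red) and 9 neighbouring genes (grey) in chromosomal order, with spacing not to scale. The neighbours lie between -0.06 and 0.11, and the family C genes between -2.97 and -0.97.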

How the data were processed

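Total RNA of VNOs was labelled by the Affymetrix WT Plus protocol, per the labels' protocols. The deposited values are log2 signals, and RMA and the Transcriptome Analysis Console are named per the submitters' processing notes. The sources used here give no settings, versions or genome build, and no scanner files were used. The table held 41345 probe sets, of which 23521 had 1 gene in the annotation, 1814 had several and 16010 had none. Matching Entrez identifiers to RefSeq found 23328 of the 23521 and changed 0 symbols. Genes with several probe sets kept the one of highest mean over the 6 arrays. The 22180 genes were fitted with limma 3.58.1 (R 4.3.3, lmFit and eBayes, no covariate, 2-sided), with Benjamini-Hochberg adjustment over all of them. Figures were drawn with matplotlib 3.10.9. The fit was tested on simulated data. Alternatives covered moderation, probe set choice, a filter on the dimmest 30% of genes, scaling, array weights, constant genes, a replicate block and leaving out each array. The named genes were all family C genes, fixed lists, the 5 nearest V2R and 5 nearest other genes by likeness, and chromosomal neighbours. Members and lists were chosen with earlier results of these data known.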

Additional observations from a re-analysis of the deposited data

How the results depend on the processing

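All 7 family C genes had negative differences in every alternative that measured them. In the fits that left out 1 array the sign was fixed beforehand, since every null array lay under every wild-type array. Their median difference lay between -1.80 and -1.64 when single arrays were left out, and between 1 and 4 of them then passed, namely 1 without AP-2e null replicate 2 or 3, 2 without wild-type replicate 2, and 3 or 4 without another single array. Without the dimmest 30% of genes 3 passed of 5 that remained, since Vmn2r3 and Vmn2r5 were left out. With median centring or array weights 5 passed. Of the other V2R genes, 38 passed with all arrays and between 14 and 22 with 1 array left out. The fixed lists, counted over alternatives chosen after seeing the data, had 1 gene past the threshold with all arrays and between 0 and 2 with 1 left out. Between 16 and 17 of the 21 pairs did not overlap when single arrays were left out. This count could not fall, since leaving out an array cannot make separate groups overlap. Replicate numbers are shared between genotypes, but same-numbered arrays deviated together with r of 0.040, 0.110 and 0.019, and 1 of the 6 arrays correlated best with its own number, so the numbers were not taken to pair samples. With the replicate block 3 family C genes, 18 other V2R genes and 0 genes of the fixed lists passed, and Vmn2r4 was the family C gene that did not keep its call (adjusted p = 0.222).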
